A study of Bos grunniens x Bos taurus and Bos grunniens with 6 samples.

Results

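The genes described here are 10 genes of stem spermatogonia self-renewal, chosen by their names: GFRA1, RET, ID4, ETV5, ZBTB16, FOXO1, SALL4, NANOS2, LIN28A and UCHL1. Each name stood on 1 row of the deposited expression table, so 10 of its 18918 genes were followed. The table holds FPKM values (fragments divided by the length of the gene model and the depth of the library) of testis tissue from 3 cattle-yak (C1, C2 and C3) and 3 Gannan yak (Y1, Y2 and Y3), 1 library per animal, all males 4 years old. The cattle-yak were F1 animals with a Jersey cattle sire and a Gannan yak dam, and such males make no sperm. The groups came from different counties, cattle-yak testes were removed surgically from live animals while yak were euthanized first, and the reads of both groups were mapped to the yak genome, so that origin, collection and the share of cattle sequence cannot be told apart from the group.

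Spermatogonial stem cells sit on the basement membrane of the seminiferous tubule and either renew themselves or enter differentiation. In rodents, where most of this was worked out, Sertoli cells secrete GDNF, which binds the co-receptor GFRA1 and signals through the receptor tyrosine kinase RET. The transcription factors ID4, ETV5, ZBTB16, FOXO1 and SALL4 and the RNA-binding proteins NANOS2 and LIN28A act in undifferentiated spermatogonia. UCHL1, a ubiquitin hydrolase, marks spermatogonia in many livestock species. Several of these genes are also used outside the germ line, UCHL1 in neurons and FOXO1 in many somatic cells.

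A library rested on 11175100 to 13136129 fragments on genes, so that 1 fragment on a gene model of 1 kb corresponded to between 0.0761 and 0.0895 FPKM. Markers of Sertoli, Leydig and myoid cells were present in all 6 libraries. Summed FPKM of 8 spermatid genes was 9230 to 11219 in yak and 17.5 to 87.5 in cattle-yak. For the 12 tested Sertoli genes, all 12 rose in cattle-yak, with summed values over the list of 2715 to 2867 against 543 to 618, none of them at 0 in any library. Of these, SOX9 rose by 2.18 and FSHR by 2.46, and 33.4% of all tested genes were called higher. In bulk tissue a change in the share of a cell type and a change in RNA per cell cannot be told apart.

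The order of the 10 genes by mean FPKM was nearly the same in both groups and is shown in the plot of FPKM by library. UCHL1 was the most abundant, with means of 212 ± 29.8 FPKM (SD, n = 3) among cattle-yak and 52.5 ± 5.50 among yak, followed by ID4, FOXO1 and ETV5. ZBTB16, SALL4 and RET came next, and between different animals their values overlapped with those of the neighbouring gene in both groups. Within a library ZBTB16 was above SALL4 in every cattle-yak animal and below it in every yak animal. SALL4 was above RET in C1 and C3 but below it in C2, and in every yak animal ZBTB16 was above RET. In yak FOXO1 and ETV5 overlapped between animals as well, though FOXO1 was the higher in every yak library. GFRA1, NANOS2 and LIN28A were the lowest, and in both groups GFRA1 overlapped with NANOS2, and NANOS2 with LIN28A, between animals. Within a library GFRA1 was above NANOS2 in every animal, and NANOS2 above LIN28A in every animal but Y2. Among all genes of the table UCHL1 stood on average at percentile 97.9 of a cattle-yak library and 86.8 of a yak library, ID4 at 90.2 and 59.0, and GFRA1 at 36.7 and 25.6.

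**Figure D1:**
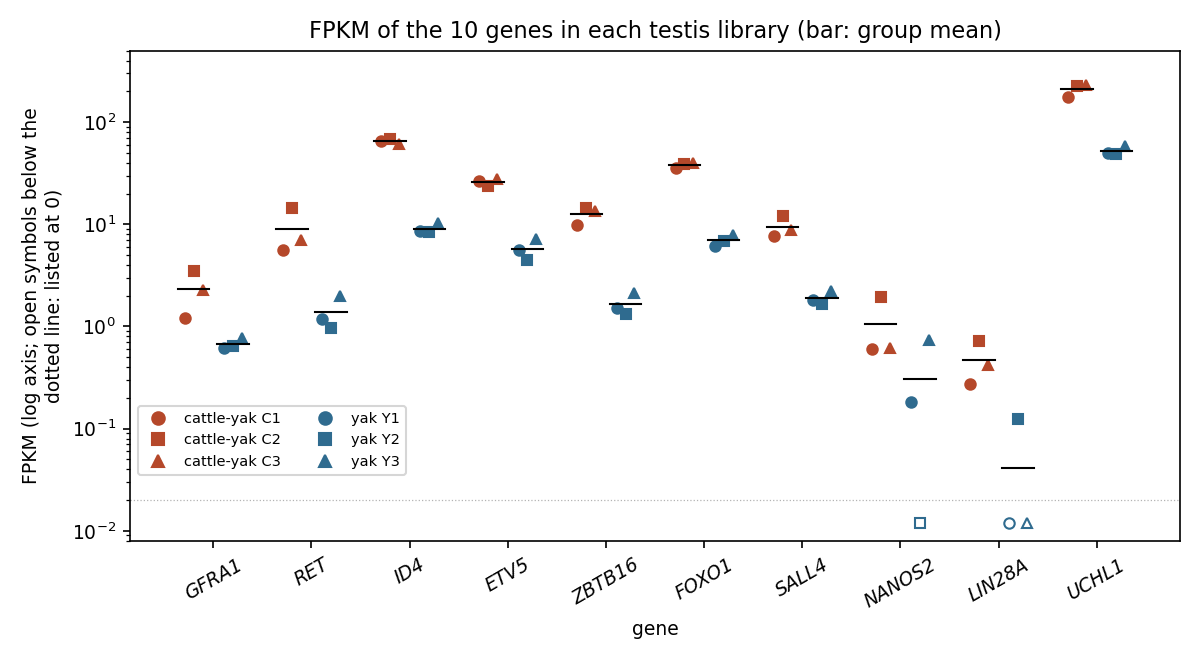
FPKM of the 10 genes (log axis) in each cattle-yak (red) and yak (blue) library, with symbols for the animals and black bars for the group means. Apart from NANOS2, every gene has its 3 cattle-yak points above its 3 yak points, while NANOS2 in Y2 and LIN28A in Y1 and Y3 are listed at 0.

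The minimum for a test was a mean FPKM of 0.5, which 9 of the 10 genes reached, and these were tested among 15042 genes with limma on log2 (FPKM + 1). At an adjusted p under 0.05 and a log2 (foldchange) beyond 1, 7 of the 9 rose in cattle-yak and 0 fell, where 33.4% of all tested genes were called higher and 20.8% lower. These 7 were RET, ID4, ETV5, ZBTB16, FOXO1, SALL4 and UCHL1. GFRA1 passed the p but not the fold, NANOS2 passed neither, and LIN28A lay under the minimum for the test. NANOS2 reached that minimum only through its cattle-yak values. Of the 10, 9 had every cattle-yak value above every yak value, as did 45.6% of all genes in the table. The median log2 (foldchange) of the 9 tested genes was 1.997, against 0.51 over all tested genes, and 7.78% of those genes lay above 1.997.

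GFRA1 and RET form the receptor for the niche signal GDNF. GFRA1 (ENSBGRG00000016210, given as Gfra1) had 1.22, 3.51 and 2.28 FPKM in C1, C2 and C3, and 0.612, 0.640 and 0.774 in Y1, Y2 and Y3. The lowest cattle-yak value, in C1, was 1.57 times the highest yak value, and the values behind it were 43 fragments in C1 and 30 in Y3. Its log2 (foldchange) of 0.94 (95% interval 0.35 to 1.52, adjusted p = 8.3e-03 from limma) understates the ratio of the means, which was 3.46, because the pseudocount of 1 is large beside such values. Without C1 it was 1.20 and passed the threshold, and with a pseudocount of 0.1 it was 1.54. The log2 (foldchange) of GFRA1 was lower, at 0.69, without C2, its highest cattle-yak library. Under median-of-ratios scaling it was 0.59 (adjusted p = 0.047 from limma), also under the fold threshold.

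For RET (ENSBGRG00000024201) the cattle-yak values were 5.65, 14.4 and 6.95 FPKM, and the yak values 1.18, 0.964 and 1.99. C2 held more than C1 and C3 together, yet the groups did not overlap. The log2 (foldchange) was 1.997 (95% interval 1.26 to 2.73, adjusted p = 4.5e-04 from limma).

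Both parts of the receptor were thus higher per library depth, but not in proportion. The ratio of GFRA1 to RET within a library was 0.216, 0.244 and 0.329 for C1 to C3, whereas Y1 to Y3 gave 0.521, 0.663 and 0.389. Every cattle-yak ratio lay under every yak ratio, and the mean log2 ratio was lower by 0.99 (exact permutation test, two-sided, p = 0.1, the smallest that 3 animals against 3 allow). A ratio within a library does not depend on how the libraries are scaled.

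The ligand itself, GDNF, stood at 1.33, 1.55 and 2.58 FPKM among cattle-yak, and at 0.359, 0.120 and 0.363 among yak. It rose by 1.12 (adjusted p = 1.0e-03 from limma), or by 0.93, under the threshold, without C3. NRTN, a GDNF relative that prefers the co-receptor GFRA2, rose by 2.02, and GFRA2 by 1.18 (0.95 without C2). Yak means of GDNF and GFRA2 (0.28 and 0.37 FPKM) lay under the minimum of 0.5, so both were tested only through their cattle-yak values. The 0.120 FPKM of GDNF in Y2 stood near the 0.0763 that 1 fragment on a model of 1 kb gives there. GFRA3 and GFRA4, the other co-receptors of the family, had −0.04 and 0.29 and were not called. NCAM1, which can bind GDNF through GFRA1 without RET, rose by 1.46 on the more abundant of its 2 rows. Under median-of-ratios scaling GDNF, GFRA2 and NCAM1 were at 0.85, 0.88 and 0.89, all under the fold threshold. After division by the Sertoli level GDNF was at 0.15, GFRA2 at 0.07, NRTN at −0.04 and NCAM1 at −0.71 (adjusted p = 2.2e-03 from limma).

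ID4 (ENSBGRG00000007672), an inhibitor of basic helix-loop-helix factors that in mice marks the most primitive spermatogonia, reached 64.7, 68.9 and 61.4 FPKM in C1 to C3, compared with 8.64, 8.34 and 10.2 in Y1 to Y3. It had the largest log2 (foldchange) of the tested genes of the set, 2.72 (95% interval 2.45 to 2.98), and the smallest spread in cattle-yak, a coefficient of variation of 5.78%. The lowest cattle-yak animal had 6.01 times the FPKM of the highest yak animal. Of its paralogs, ID2 rose by 1.14 (−0.99 when the FPKM of each library were divided by its level of Sertoli genes), ID3 had 0.80 and ID1 −0.24 (neither called).

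ZBTB16 (ENSBGRG00000005665), the repressor PLZF, gave 9.86, 14.4 and 13.4 FPKM for the cattle-yak animals and 1.504, 1.33 and 2.15 for the yak animals. Its ratio of means was 7.55, above that of ID4 (7.17), and its log2 (foldchange) was 2.34 (adjusted p = 8.4e-06 from limma). SALL4 (ENSBGRG00000005594), a zinc finger factor that binds ZBTB16, gave 7.69, 11.96 and 8.79 FPKM against 1.82, 1.67 and 2.23, and a log2 (foldchange) of 1.83. In each cattle-yak library ZBTB16 exceeded SALL4, with ratios of 1.20 to 1.52, and in each yak library it was below it, with ratios of 0.797 to 0.962.

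FOXO1 (ENSBGRG00000012579), which moves into the nucleus when PI3K-AKT signalling is low, lay at 35.4, 38.8 and 40.2 FPKM in C1 to C3 and at 6.19, 6.90 and 7.83 in Y1 to Y3, with no overlap. It rose by 2.30 on the log2 scale (95% interval 2.02 to 2.58, adjusted p = 9.7e-07 from limma). FOXO3 rose by 1.74 (−0.45 after division by the Sertoli level) and FOXO6 by 1.55 (0.02), while FOXO4 had 0.51 and was not called. FOXO1 exceeded FOXO3 by a ratio of 1.42 to 1.54 in the cattle-yak libraries, compared with 0.835 to 1.16 in the yak libraries.

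ETV5 (ENSBGRG00000002337, given as Etv5), an ETS factor downstream of GDNF and FGF2 that Sertoli cells also express, showed 26.3, 23.8 and 27.9 FPKM for cattle-yak, while the yak animals showed 5.65, 4.51 and 7.12. Its log2 (foldchange) was 2.01 (adjusted p = 8.1e-06 from limma). Of its closest paralogs, ETV4 had 0.32 and ETV1 −0.93, neither past both thresholds, although ETV1 went to −1.09 without C2 and −1.12 without Y3. Under median-of-ratios scaling ETV1 was called lower at −1.49 (adjusted p = 2.6e-04 from limma), and ETV4 was at −0.20. After division by the Sertoli level they were at −3.00 and −1.63.

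The RNA-binding members rested on few fragments. NANOS2 (ENSBGRG00000019460), which keeps male germ cells undifferentiated by repressing mRNAs, was covered by 3, 9 and 3 fragments in the cattle-yak libraries, and by 1, 0 and 4 in Y1 to Y3. As FPKM these were 0.608, 1.93 and 0.620 against 0.183, 0 and 0.738, so that C1 and C3 lay under Y3 and the groups overlapped. Its log2 (foldchange) was 0.63, short of the threshold (95% interval −0.06 to 1.32, adjusted p = 0.080 from limma). From the summed fragments per depth the ratio was 3.40, with an exact 95% interval of 1.17 to 11.96 that covers counting error only. Between animals the difference was within the spread, and C2 held 9 of the 15 cattle-yak fragments.

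LIN28A (ENSBGRG00000006645, given as Lin28a), which blocks maturation of let-7 microRNAs, had 2, 5 and 3 fragments in cattle-yak, and in yak 1 fragment in Y2 and none in Y1 and Y3. These were 0.273, 0.724 and 0.418 FPKM in cattle-yak and 0.123 FPKM in Y2. The ratio of summed fragments per depth was 11.3, with an exact 95% counting interval of 1.61 to 492. Tested without a minimum its log2 (foldchange) was 0.49, with an adjusted p of 7.8e-03 from limma. With voom in limma on the recovered fragments it was 2.51 (adjusted p = 0.012), and 1.89 (adjusted p = 0.046) with size factors.

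The paralogs were more abundant than these members. Mean FPKM of NANOS3 was 32.1 ± 0.87 (SD, n = 3) for cattle-yak and 8.68 ± 0.23 for yak, and that of NANOS1 7.87 ± 0.76 and 1.18 ± 0.64. NANOS3 rose by 1.78 on the log2 scale (−0.45 after division by the Sertoli level) and NANOS1 by 2.06 (0.34). LIN28B had 2.11 ± 0.71 and 1.85 ± 0.39 FPKM (log2 (foldchange) 0.11, not called). DND1, the germ cell partner of NANOS2, rose by 1.66, from 4.23 ± 0.93 to 15.6 ± 3.42 FPKM.

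UCHL1 (ENSBGRG00000002608) ran at 178, 227 and 231 FPKM in C1 to C3 and at 50.3, 48.4 and 58.8 in Y1 to Y3, with a log2 (foldchange) of 1.99 (95% interval 1.69 to 2.29, adjusted p = 2.8e-06 from limma). It held 56.3% of the summed FPKM of the 10 genes in cattle-yak and 65.5% in yak. The related hydrolases UCHL3 and UCHL5 had 0.08 and 0.35, not called, and BAP1 fell by 1.19 on the more abundant of its 2 rows. After division by the Sertoli level, UCHL3, UCHL5 and BAP1 had −2.26, −1.97 and −3.51.

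How the libraries are scaled moved these values, as the plot of differences under 3 scalings shows. Under median-of-ratios scaling, which brought the median of all genes from 0.51 to 0.01, the same 7 genes of the set were called higher, with log2 (foldchange) values of 1.34 for SALL4 to 2.12 for ID4, where 17.4% of all tested genes were called higher and 27.9% lower. When the FPKM of each library was divided by its level of the 12 Sertoli genes, 0 of the 9 passed both thresholds, and the values lay between −0.35 and 0.46, where 0.419% of genes were called higher and 62.9% lower. On that scale ID4 (0.46, adjusted p = 4.5e-03 from limma) and ZBTB16 (0.46, adjusted p = 0.037) were above 0, and UCHL1 was below it (−0.35, adjusted p = 0.030). RET and FOXO1 had 0.23 and 0.09, and ETV5, SALL4, NANOS2 and GFRA1 had −0.16, −0.05, −0.11 and −0.35, with adjusted p values from 0.127 to 0.774. The median of all genes on that scale was −1.44. Shifting the log2 values by the Sertoli level instead called 0 higher and 2, GFRA1 and NANOS2, lower, where 0.186% of genes were higher and 74.2% lower.

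Other choices left the count of the set at 7 or more. Without the fold threshold 8 of 9 were higher, where 52.6% of all tested genes were, and GFRA1 was the gene added. GFRA1 was also added with TPM (8 of 9, against 35.3% of genes) and with a pseudocount of 0.1 (8 of 9, against 39.4%). Without a minimum the 7 of 10 stood beside 26.5% of genes, and with a minimum of 5 FPKM 7 of 7 stood beside 36.2%. With voom on recovered fragments 9 of 10 were higher (35.5% of genes), NANOS2 being the exception, and 8 of 10 with size factors (20.3%), NANOS2 and GFRA1 being the exceptions. Among the 9 genes tested on FPKM 8 had every cattle-yak value above every yak value, as had 53.9% of the tested genes.

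**Figure D2:**
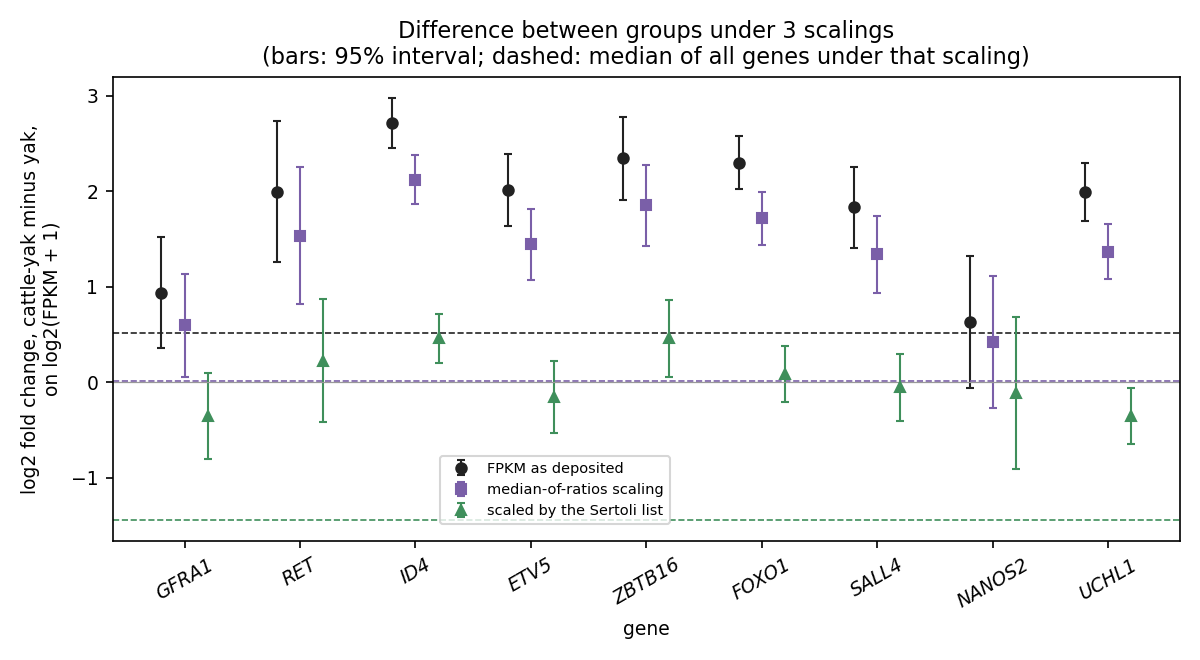
Log2 (foldchange) of the 9 tested genes, cattle-yak minus yak, on log2 (FPKM + 1), with 95% intervals from limma, for FPKM as deposited (black), median-of-ratios scaling (purple) and scaling by the Sertoli list (green). Dashed lines are the medians of all genes under each scaling: each gene lies above the line of its colour, and the green values lie between −0.35 and 0.46.

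Ratios within a library need neither a scaling nor a pseudocount. Relative to DAZL, an RNA-binding protein of germ cells from spermatogonia to spermatocytes, 7 of the 9 tested genes had every cattle-yak ratio above every yak ratio, as did 28.2% of all tested genes. The ratio to DAZL was 3.85 times higher in cattle-yak for ZBTB16, 3.67 for ID4, 3.36 for RET and 2.05 for UCHL1, from group means, and GFRA1 and NANOS2 overlapped. These folds rest on DAZL alone, whose own log2 (foldchange) was 0.97. MAEL, TDRD1, TDRD9, RNF17, TEX101 and BOLL, the other tested pan-germ cell genes, had −1.64 to −0.88, and ratios to them were not computed. Relative to KIT, the receptor of differentiating spermatogonia, 0 of the 9 had every cattle-yak ratio below every yak ratio, beside 65.4% of tested genes. Every cattle-yak ratio was above every yak ratio for 3 genes, as for 6.32% of all tested genes. These were ID4 (1.96 to 2.87 in cattle-yak, 1.04 to 1.37 in yak), ZBTB16 (0.374 to 0.6005 against 0.166 to 0.257) and FOXO1 (1.29 to 1.62 against 0.861 to 0.985). For GFRA1 the ratio to KIT was 0.046, 0.146 and 0.073 in cattle-yak and 0.097, 0.080 and 0.092 in yak, so the yak values lay within the range of the cattle-yak values. Ratios to STRA8, another gene of differentiating spermatogonia, were higher without overlap for RET, ID4, ETV5, ZBTB16, FOXO1 and SALL4. Those of GFRA1, NANOS2 and UCHL1 overlapped, and the share of all genes was not computed for STRA8. Relative to the Sertoli list ID4 was higher without overlap, as for 2.85% of all tested genes, UCHL1 was lower without overlap, as for 80.5%, and the other 7 tested genes overlapped.

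**Figure D3:**
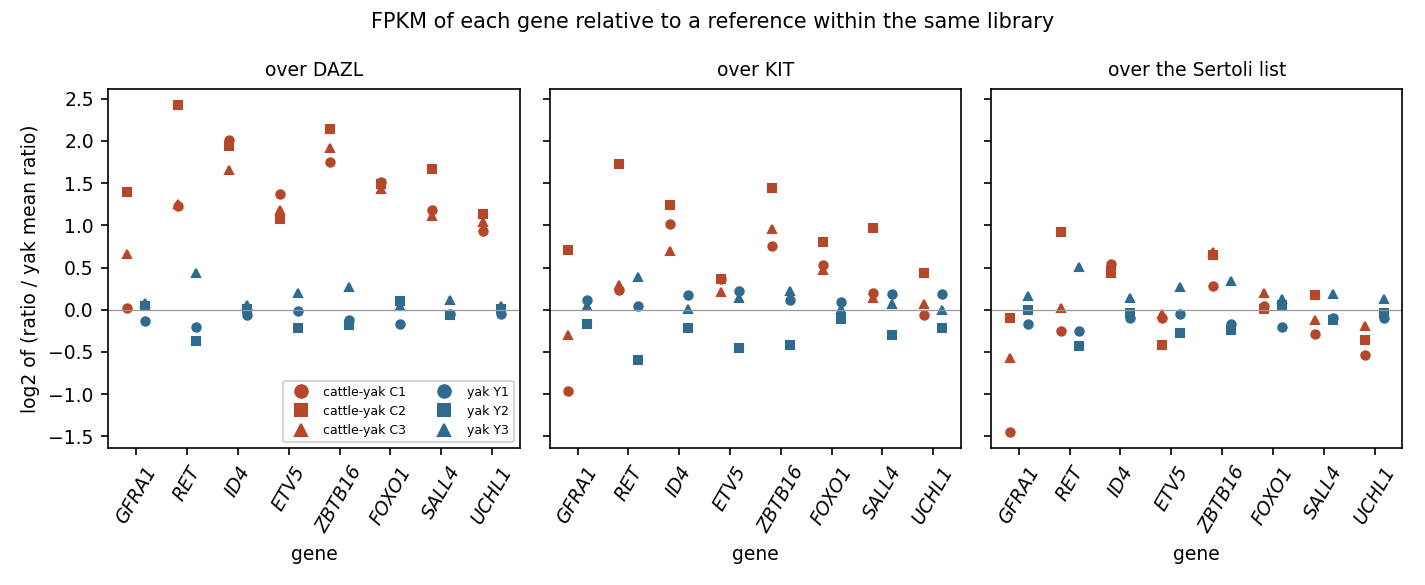
Log2 of each gene's FPKM divided by that of DAZL, KIT or the geometric mean of 12 Sertoli genes in the same library, relative to the mean of the yak ratios, for the 8 genes with values above 0 in every library. Red points are cattle-yak and blue points yak: the red points of ZBTB16 and ID4 are clear of the blue ones over DAZL and KIT, and over the Sertoli list those of ID4 are above and those of UCHL1 below.

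The cattle-yak animals differed from each other more for some of the 10 genes than for others. C2 was the highest cattle-yak library for 7 of the 10, while 37.8% of all tested genes were highest there, and C1 was the lowest for 8, as for 34.4% of all tested genes. NANOS2, RET, LIN28A and GFRA1 in C2 were 3.15, 2.28, 2.09 and 2.005 times the mean of C1 and C3, a ratio of 2 or more that 3.16% of the tested genes reached. SALL4 and ZBTB16 followed with 1.45 and 1.24, and UCHL1, ID4, FOXO1 and ETV5 lay between 0.88 and 1.11. In C1, C2 and C3 NANOS2 rested on only 3, 9 and 3 fragments and LIN28A on 2, 5 and 3. LIN28A was also not among the tested genes.

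The other genes of undifferentiated spermatogonia had a median of 1.01 times the mean of C1 and C3 in C2, and 5 of 15 were highest and 3 lowest there, with FGFR3 at 1.84, TAF4B at 1.07, CD9 at 1.01 and NANOS3 at 0.99. Of the 11 spermatocyte genes, 10 were lowest in C2 among the cattle-yak animals, with DMC1 at 45.0, 19.6 and 44.9 FPKM in C1, C2 and C3 and MEIOB at 41.6, 16.5 and 30.6. KIT and STRA8, which mark entry into differentiation and meiosis, were 0.83 and 0.74 times the mean of C1 and C3 in C2. The Sertoli, Leydig and myoid lists had medians of 1.102, 1.12 and 1.29. C2 was singled out after its values were seen, and the part of its cell composition in these values was not tested. In yak Y3 was the highest library for 9 of the 10 genes, and for 40.1% of all tested genes.

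**Figure D4:**
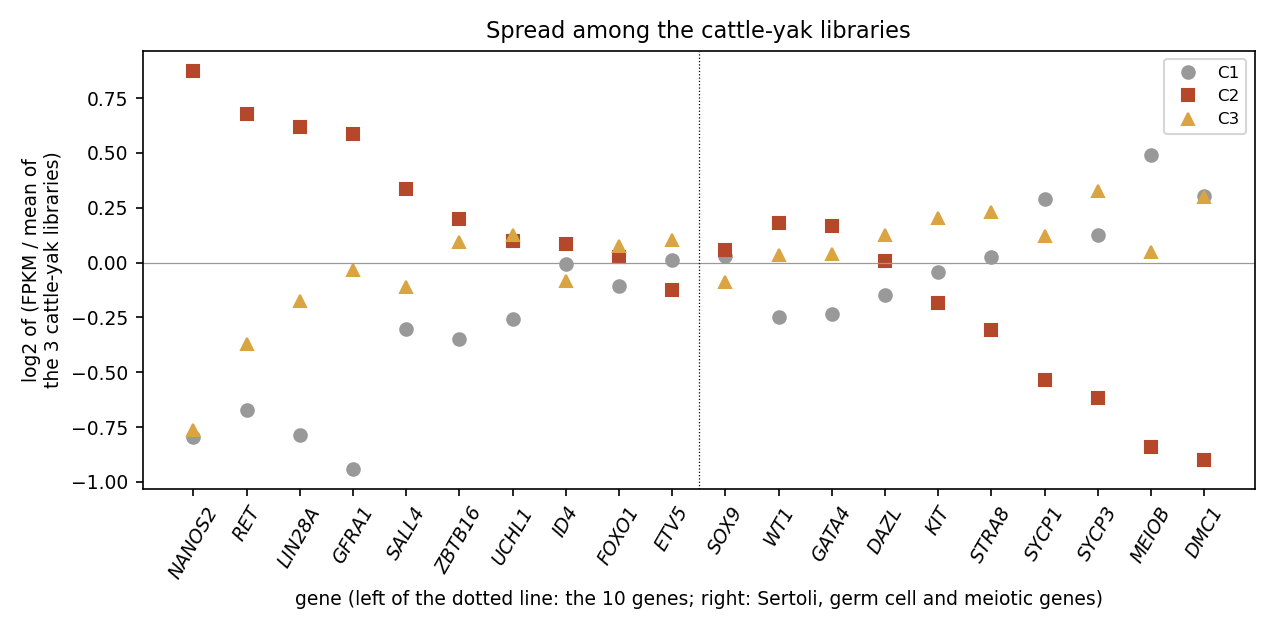
Log2 of FPKM relative to the mean of the 3 cattle-yak libraries for the 10 genes (left of the dotted line) and for Sertoli, germ cell and meiotic genes (right). C2 (red squares) is highest for NANOS2, RET, LIN28A and GFRA1 and lowest for SYCP1, SYCP3, MEIOB and DMC1, while ID4, FOXO1 and ETV5 hardly spread.

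Other genes known from undifferentiated spermatogonia went in both directions. Of 15 tested genes of that list 9 rose and 1 fell, with a median log2 (foldchange) of 1.04, against 0.51 for all genes, and under median-of-ratios scaling 4 rose and 2 fell. After division by the Sertoli level 0 rose and 6 of 16 fell. Of all tested genes 33.4% rose and 20.8% fell, and under median-of-ratios scaling 17.4% and 27.9%. After division by the Sertoli level these shares were 0.419% and 62.9%. TAF4B, a subunit of the transcription machinery needed to keep germ cells, rose by 2.01, and the surface protein CD9 by 2.001. LHX1, a GDNF target in mouse spermatogonia, fell under all 3 scalings, by 2.31 on FPKM as deposited, with 0.267, 0.535 and 0.0909 FPKM for C1 to C3 beside 7.22, 5.52 and 3.79 for Y1 to Y3. BCL6B, another such target, had 4.57 ± 1.05 and 9.63 ± 2.80 FPKM (SD, n = 3), a log2 (foldchange) of −0.92 that passed −1 without C2 (−1.04), without Y2 (−1.09) and under median-of-ratios scaling (−1.45). EGR4, a further GDNF-responsive factor, had 0.50 and was not called. The cattle-yak mean of LHX1 (0.30 FPKM) and the yak mean of EGR4 (0.32 FPKM) lay under the minimum of 0.5. LHX1 was thus tested only through its yak values, and EGR4 only through its cattle-yak values. THY1, TSPAN33 and ZBTB43 lay just past 1, and all 3 calls were lost without Y3. TSPAN33 was also lost without C2 or Y2, THY1 without C3 and ZBTB43 without C1, while FGFR3 (0.81) was gained without C1 (1.05).

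Among 11 tested genes of differentiating spermatogonia 6 rose and 0 fell (median 1.498), beside 33.4% and 20.8% of all tested genes. Under median-of-ratios scaling 4 rose and 1 fell, beside 17.4% and 27.9%. After division by the Sertoli level 0 rose and 5 fell, beside 0.419% and 62.9%. DMRT1, KIT, SOHLH1, RARG and STRA8 rose by 1.95, 1.72, 1.69, 1.68 and 1.56. SOHLH2, the dimer partner of SOHLH1, was at 52.0 ± 3.75 FPKM among cattle-yak and 50.2 ± 2.65 among yak (SD, n = 3), a difference within the spread between animals. DNMT3B had −0.98 and passed −1 without C1 (−1.13), Y2 (−1.001) or Y3 (−1.01).

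In the list of GDNF and FGF2 signalling 16 of 30 tested genes rose and 1 fell (median 1.15), beside 33.4% and 20.8% of all tested genes. Under median-of-ratios scaling 9 rose and 3 fell, beside 17.4% and 27.9%. After division by the Sertoli level 0 rose and 13 of 31 fell, beside 0.419% and 62.9%. FGFR1, the receptor of FGF2, rose by 2.80, and the Src family kinases SRC, FYN and YES1, which act below RET, by 2.79, 2.52 and 2.10. The gene that fell, named after its value was seen, was the MAP kinase MAPK3, with 104 ± 9.74 FPKM against 271 ± 8.02 (SD, n = 3). FGF9 had −0.81, and −1.032 without C2, which called it lower too. FGF2 had 1.17 ± 0.41 and 0.90 ± 0.17 FPKM and was not called.

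Of 20 partners and effectors of the 10 genes, 5 rose and 3 fell (median 0.70), beside 33.4% and 20.8% of all tested genes. Under median-of-ratios scaling 4 rose and 4 fell, beside 17.4% and 27.9%. After division by the Sertoli level 0 rose and 15 fell, beside 0.419% and 62.9%. DDIT4, an inhibitor of mTORC1 that ZBTB16 induces in mice, rose by 2.69, from 16.1 ± 1.89 to 109 ± 15.5 FPKM (SD, n = 3), and was at 0.39 after division by the Sertoli level (adjusted p = 0.017 from limma). Among the genes that fell were, named after their values were seen, MTOR by 1.16 and PDPK1 by 1.60, and both were lower under every scaling tried. Among those that rose, RPTOR (1.04) was under the threshold without C2 or Y3 (0.99).

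Among 19 tested paralogs of the 10 genes 7 rose (36.8%) and 2 fell, beside 33.4% and 20.8% of all tested genes. Their median was 0.35, under the 0.51 of all genes. Under median-of-ratios scaling 4 rose and 3 fell, beside 17.4% and 27.9%. After division by the Sertoli level 0 rose and 12 fell, beside 0.419% and 62.9%. ZBTB32 fell by 2.66, from 39.1 ± 9.78 to 5.75 ± 3.34 FPKM (SD, n = 3), and BAP1 was the other that fell. SALL1 and SALL3 lay under the minimum for the test.

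Genes of the pan-germ cell, spermatocyte and spermatid lists were mostly not higher on FPKM as deposited. Beside the counts that follow, 33.4% of all tested genes rose and 20.8% fell. Under median-of-ratios scaling the shares were 17.4% and 27.9%, and after division by the Sertoli level 0.419% and 62.9%. Of 7 pan-germ cell genes 0 rose and 4 fell (median −1.36), among them BOLL, MAEL, TDRD9 and TDRD1, with 6 lower under median-of-ratios scaling or without C1, and 7 after division by the Sertoli level. DAZL had 0.97, and was called higher without C1 (1.04) or Y3 (1.027). Of 11 spermatocyte genes SYCP3 rose (1.096, but 0.91 without C3 and 0.998 without Y1, under the threshold) and SYCE1 fell by 2.10, named after their values were seen, with a median of −0.23, and 0 rose and 4 fell under median-of-ratios scaling, and 0 rose and 11 fell after division by the Sertoli level. All 8 spermatid genes fell by 5.07 to 8.27 on FPKM as deposited, and were also lower under the other scalings. In somatic lists, 6 of 6 Leydig and 6 of 6 myoid genes rose (medians 1.98 and 1.91), as did 4 of 7 endothelial and 3 of 6 macrophage genes, with 1 and 2 lower (medians 1.20 and 1.032), where CD68 was lost without C2 (0.84) and CSF1R gained without C3 (1.002) or Y2 (1.093). Under median-of-ratios scaling 5 Leydig, 5 myoid, 0 endothelial and 1 macrophage genes rose, and after division by the Sertoli level 0 genes of these 4 lists did. The median of the 9 tested genes of the set, 1.997, lay beside those of the Leydig, myoid and Sertoli (2.29) lists, and their difference was not tested.

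**Figure D5:**
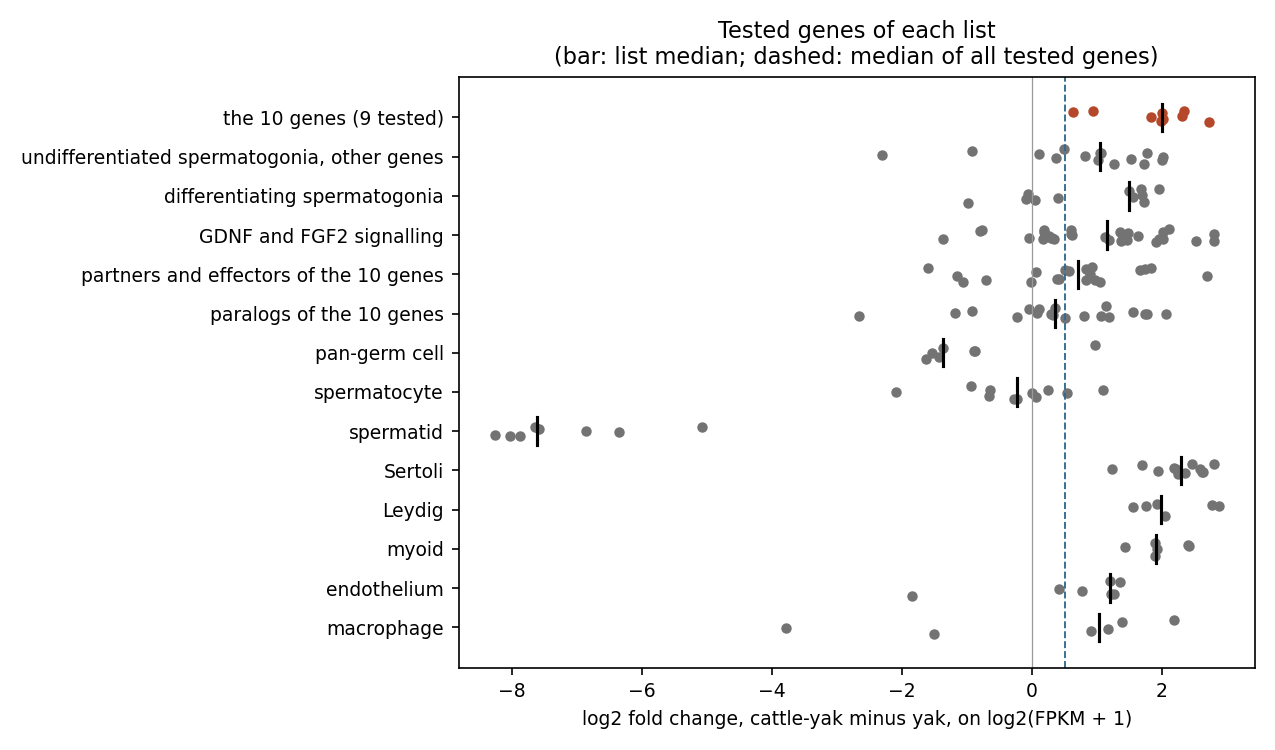
Log2 (foldchange), cattle-yak minus yak, on log2 (FPKM + 1), of the tested genes of each list, with the list median as a black bar and the median of all tested genes (0.51) as a dashed line. The 9 tested genes of the set (red) lie between 0.63 and 2.72, near the Sertoli, Leydig and myoid genes, while the spermatid genes lie between −8.27 and −5.07.

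The annotation deposited with the table gave GO terms for 7 of the 10 genes. NANOS2 and LIN28A shared P-body and negative regulation of translation, terms on 0.545% and 0.377% of the annotated genes. ETV5, FOXO1 and SALL4 shared RNA polymerase II-specific DNA-binding transcription factor activity, a term on 5.10%. For 6 genes with a KEGG pathway, transcriptional misregulation in cancer was the most frequent, on ID4, ETV5, ZBTB16 and FOXO1 and on 3.14% of annotated genes.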

How the data were processed

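According to their methods, the authors used Trimmomatic for trimming, HISAT2 for alignment to the yak genome assembly LU_Bosgru_v3.0 and Cufflinks for FPKM. Tool versions are not given in the sources used here. The FPKM were deposited relative to gene length and library depth, and libraries were not scaled to each other. Groups came from the labels, and columns were matched to samples by title. C1 to C3 and Y1 to Y3 follow the order of the samples, and the numbers pair no animals.

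Genes whose mean FPKM reached 0.5 were compared with limma 3.58.1 in R 4.3.3 on log2 (FPKM + 1), two-sided, with a variance trend and Benjamini-Hochberg adjustment over all genes tested. The GFRA1 to RET ratio was compared with an exact permutation test over the splits of 6 animals. Whole fragments were recovered from the ratios of FPKM between libraries for 17973 genes, within 0.03 of a whole number. The gene lengths this implies were whole, to within 0.02 bases, for 99.1% of these genes. Fits and recovery were tested on simulated data.

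The genes and lists were chosen with earlier results of these data known. The named genes are the 10 genes, the 4 tested genes with the largest absolute log2 (foldchange) of each list of spermatogonial, signalling, partner and paralog genes, and ligands, receptors, partners and paralogs fixed with the lists. Every other gene with a value, such as NRTN, FOXO6, BAP1, FGF9, MTOR, DNMT3B, THY1, FGFR3, RPTOR, CD68 and the meiotic and pan-germ cell genes, was chosen after its values were seen. Where a symbol stood on several rows, the most abundant was used. Symbols of the lists without a matching row, such as DDX4, NEUROG3 and UTF1, were not analysed here, and the results of some named genes are not reported here. Alternatives were other scalings, pseudocounts, minimums, no variance trend, no fold threshold, voom on fragments, and each animal left out. Division by the Sertoli level and voom with size factors were added after seeing the data. No sequences were printed, since no reference was used here. Python 3.11.15 with scipy and matplotlib was used for the rest.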

Additional observations from a re-analysis of the deposited data

How the results depend on the processing

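The 7 genes of the set called higher stayed 7 to 9 under the alternatives other than the Sertoli-based scalings, with 7 to 8 when 1 animal was left out; the count was 0 after centring on the Sertoli genes, when 2 were called lower, and 0 after division by the Sertoli level. Centring shifts values after the pseudocount was added, which pulls genes of low FPKM down, such as GFRA1 (−1.31) and NANOS2 (−1.61). SALL4 was −0.41, RET −0.25, ETV5 −0.23 and the abundant UCHL1 −0.26 after centring. Division by the Sertoli level before the log gave −0.35 for GFRA1 and for UCHL1, −0.16 for ETV5, −0.11 for NANOS2 and −0.054 for SALL4. Over all genes, 5023 were higher and 3136 lower. The number higher was 2624 under median-of-ratios scaling, 28 after centring, 64 after division and 7916 without the fold threshold. The number lower was 11157 after centring, 9617 after division and 5070 with voom and size factors. Leaving out an animal gave 4904 to 5134 higher and 3076 to 3192 lower. The difference in the log2 ratio of GFRA1 to RET was −0.99, and −1.18 to −0.80 when an animal was left out. NANOS2 could not be tested without C2, where its mean fell under the minimum. The few fragments of NANOS2 and LIN28A limit what these data can show of them.
No paired analysis was possible because the labels give the groups no shared numbers.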
